A study of Arabidopsis thaliana with 24 samples.

Results

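The difference between organs in the response of mRNA to the rh27-2 allele of RH27 was measured in Arabidopsis thaliana seedlings at 5 days after germination. It is the contrast of the rh27-2 change in root tips minus the rh27-2 change in shoot apices, and it uses all 12 mRNA libraries of a study of 24 libraries. The other 12 hold small RNA and were not used here. The 4 groups were rh27-2 root tips, WT (Col-0) root tips, rh27-2 shoot apices and WT (Col-0) shoot apices, with 3 libraries each. Every group grew on plates of Murashige and Skoog medium, at 1/2 strength and with 1% sucrose, at 21-22°C in cycles of 16 h light and 8 h dark. The labels do not say what kind of mutation rh27-2 is, how many plants a library pools, or whether replicates come from separate cultures, so p-values reflect the spread among these libraries alone, which may be technical.

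RH27 (AT5G65900) belongs to the DEAD-box RNA helicases, enzymes that use ATP to open or remodel RNA duplexes and RNA-protein complexes. Plant DEAD-box helicases act in ribosome assembly, splicing, export and the processing of microRNA precursors. Shoot and root tips both hold a stem cell niche and dividing cells, but the shoot apex also holds young leaf tissue with developing chloroplasts and an epidermis sealed by a cuticle, while the root tip holds a cap, an endodermis, the first root hairs and young vascular strands. A genotype by organ interaction asks, for each gene, whether the mutant changes the mRNA by a different factor in the 2 organs. A positive value here means that the log2 change was higher in root tips than in shoot apices.

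The libraries held 15603992 to 20380109 counts, on 21650 to 22788 detected loci. Levels are given in CPM, the usual scaling of counts to a common library total, after TMM adjustment over the 12 libraries. The spread between replicates was wider in shoot apices, with a biological coefficient of variation of 0.202, than in root tips, with 0.0735. RH27 itself had 12.6, 14.9 and 13.7 CPM in rh27-2 root tips, against 25.5, 24.5 and 21.8 CPM in WT root tips. In shoot apices it had 25.8, 26.8 and 24 CPM in rh27-2 shoot apices, against 34.6, 26.9 and 30.8 CPM in WT shoot apices. Each rh27-2 library was lower than every WT library in both organs. The log2 change was -0.80 ± 0.094 in root tips (adjusted p = 8.47e-06) and -0.33 ± 0.12 in shoot apices (adjusted p = 0.0712), which did not pass. The interaction was -0.53 ± 0.16 (SE, adjusted p = 0.0181), and with total count scaling it was -0.30 and did not pass (adjusted p = 0.145).

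Summed markers separated the organs as labelled, although not every marker did: among the root tip markers, WOX5 was lower in WT root tips than in WT shoot apices (0.924 and 4.73 CPM on average), and SCR was close (75.8 and 70.3 CPM). The 10 root tip markers summed to 434 to 470 CPM in rh27-2 and 694 to 736 CPM in WT root tips, and to 77.3 to 87.2 CPM in rh27-2 and 91.7 to 101 CPM in WT shoot apices. The 8 shoot apex markers, which include genes of the meristem, the chloroplast and the stomatal lineage, summed to 13.8 to 47.1 CPM in rh27-2 and 8.78 to 13.4 CPM in WT root tips, where 4 of the 8 were at 0. In shoot apices they summed to 2390 to 7610 CPM in rh27-2 and 7810 to 11600 CPM in WT. Most of that sum came from RBCS1A (4190 CPM in rh27-2 and 7910 CPM in WT on average) and LHCB1.1 (184 and 1730 CPM), so it says little of the other markers. CLV3 and WUS were near 0 in WT shoot apices too (0.398 and 0.0947 CPM). The markers also moved with genotype inside an organ. STM, which keeps shoot meristem cells undifferentiated, averaged 64.6 CPM in rh27-2 and 12.8 CPM in WT shoot apices. SPCH, which starts the stomatal lineage in leaf epidermis, averaged 1.54 CPM in rh27-2 and 24.6 CPM in WT shoot apices, and GL1, which starts leaf hairs, averaged 0.0683 CPM in rh27-2 and 5.52 CPM in WT shoot apices. The 4 vascular markers summed to 252 to 320 CPM in rh27-2 and 87.4 to 106 CPM in WT shoot apices, but to 242 to 255 CPM in rh27-2 and 336 to 414 CPM in WT root tips. These libraries come from whole organ tips, so fewer cells of a type and less RNA per cell cannot be told apart, and the part of these shifts in the results was not tested.

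Of 20798 genes tested, 9159 had an interaction at an adjusted p under 0.05, or 44% of those tested (quasi-likelihood F test of edgeR, Benjamini-Hochberg adjusted). A positive interaction was called for 4460 genes (21.4%) and a negative one for 4699 (22.6%). The size was at least 1 on the log2 scale, a 2-fold difference between organs, for 2138 of the positive and 2489 of the negative calls. Over all tested genes the median interaction was 0.062, and the quartiles were -0.59 and 0.61. The split by sign depended on scaling. Positive calls made up 48.7% of calls with TMM, 42.9% with the RLE size factors of edgeR and 67.5% with total counts, where the median of all genes moved to 0.29. No gene called under both the reported and another setting changed its sign. Each organ was also tested by itself, with its own scaling, so the interaction is close to, but not exactly, the difference of the 2 organ changes printed beside it. In root tips 31.3% of 19443 genes were higher and 30.9% lower in rh27-2, and in shoot apices 21.1% of 18972 were higher and 19.8% lower.

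Among the 17692 genes tested in both organs, 4424 were called in each organ by its own test. Of these, 2678 changed in the same direction and 1746 in opposite directions, each with an interaction call too. Genes higher in root tips and lower in shoot apices of rh27-2 numbered 627 (3.54% of the 17692), with 81 of them at least 2-fold in each organ. Genes lower in root tips and higher in shoot apices numbered 1119 (6.32%), with 136 at least 2-fold in each. Both counts leaned on the shoot libraries. Without rh27-2 shoot replicate 2 they were 292 and 668, with 90 in place of the 136, and without rh27-2 shoot replicate 3 the first was 330. Total count scaling gave 1161 and 789, with 102 and 103 at least 2-fold in each organ, so which class was larger depended on the scaling. A response in 1 organ only was called where a gene passed the test and changed at least 2-fold there, while in the other organ it did not pass and its 95% interval lay within a 2-fold change either way. By this rule 274 genes rose (1.55%) and 159 fell (0.899%) in root tips only, while 338 rose (1.91%) and 421 fell (2.38%) in shoot apices only.

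**Figure D1:**
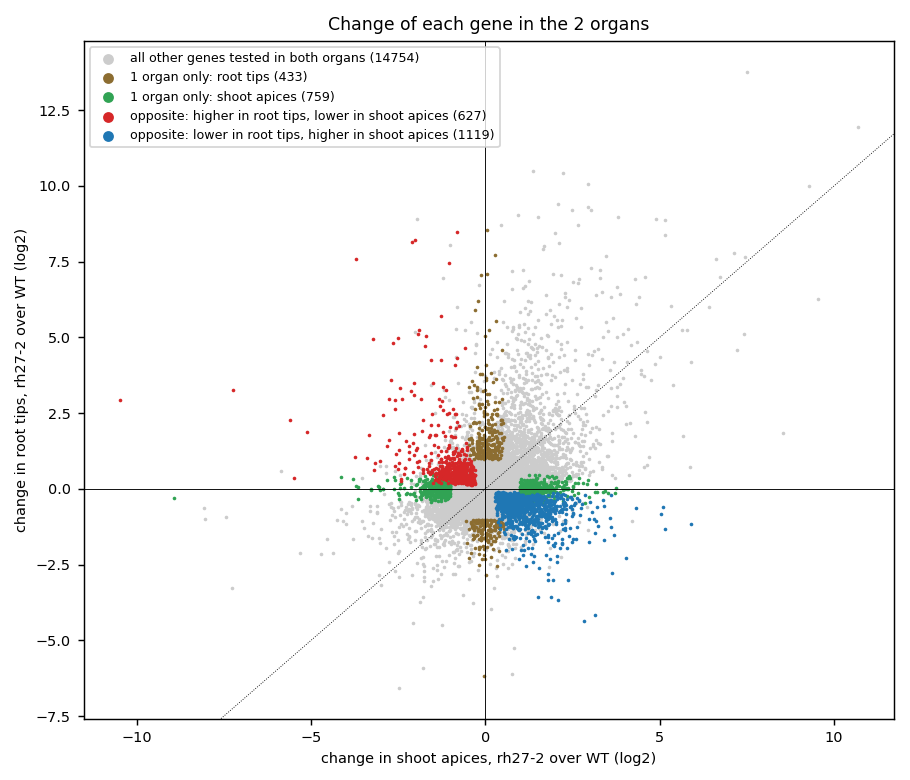
Log2 change of each of the 17692 genes tested in both organs, with shoot apices on the horizontal and root tips on the vertical axis (rh27-2 over WT). The 627 red genes lie upper left, the 1119 blue genes lower right, genes changed in 1 organ only lie along an axis line, and the dotted line marks equal change.

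Genes higher in root tips and lower in shoot apices of rh27-2 included enzymes of the cuticle, of auxin handling and of respiration. A cutinase-like esterase that can degrade cuticle, CDEF1 (AT4G30140), was at 11.1, 13.5 and 17.56 CPM in rh27-2 root tips, against 2.78, 1.56 and 0.907 CPM in WT root tips. Its level was 0.273, 0.542 and 0.211 CPM in rh27-2 shoot apices, against 450.0, 575 and 447 CPM in WT shoot apices. The genotypes did not overlap in either organ, with rh27-2 higher in root tips and lower in shoot apices. This gave log2 changes of 2.95 ± 0.34 in root tips and -10.46 ± 0.31 in shoot apices, with an interaction of 13.36 ± 0.50 (SE, adjusted p = 1.25e-07). For GPAT6 (AT2G38110), an acyltransferase that makes cutin precursors, the libraries gave 27.1, 35 and 31.3 CPM in rh27-2 root tips, against 8.88, 8.8 and 7.62 CPM in WT root tips. Shoot libraries gave 0.478, 0.867 and 0.632 CPM in rh27-2 shoot apices, against 32.1, 15.1 and 19.8 CPM in WT shoot apices. The 3 libraries of rh27-2 were higher than the WT ones in root tips and lower in shoot apices. GPAT6 had an interaction of 6.92 ± 0.41 (SE, adjusted p = 1.26e-06), from log2 changes of 1.88 ± 0.11 in root tips and -5.1 ± 0.37 in shoot apices. GH3.3 (AT2G23170), an enzyme that joins auxin to amino acids, had 31.9, 29.4 and 24.1 CPM in rh27-2 root tips, against 2.44, 2.62 and 3.51 CPM in WT root tips. The shoot values of GH3.3 were 22, 19.1 and 14.6 CPM in rh27-2 shoot apices, against 107, 138 and 45.6 CPM in WT shoot apices. Each rh27-2 library was higher than every WT library in root tips and lower in shoot apices. Its log2 change was 3.32 ± 0.15 in root tips, beside -2.44 ± 0.39 in shoot apices (SE), and the interaction was 5.7 ± 0.50 (adjusted p = 1.15e-05). An alternative NAD(P)H dehydrogenase of mitochondria, NDA1 (AT1G07180), was at 8.34, 12.1 and 12.1 CPM in rh27-2 root tips, against 0.195, 0.375 and 0.423 CPM in WT root tips. NDA1 shoot values were 13, 7.2 and 4.14 CPM in rh27-2 shoot apices, against 33.6, 26.1 and 15.9 CPM in WT shoot apices. The genotypes did not overlap in either organ, with rh27-2 higher in root tips and lower in shoot apices. The fits gave log2 changes of 5.05 ± 0.28 in root tips and -1.69 ± 0.43 in shoot apices, with an interaction of 6.68 ± 0.67 (SE, adjusted p = 2.63e-05). In the same class, the log2 changes in root tips and shoot apices were 1.77 and -1.45 for GAPA, the plastid glyceraldehyde-3-phosphate dehydrogenase of carbon fixation, 3.5 and -1.51 for AMI1, an amidase that can release auxin from its amide, 1.42 and -2.19 for CRF1, a cytokinin response factor, and 1.1 and -2.05 for KAT5, a thiolase of fatty acid breakdown. CYP81D5 and CYP96A12, both cytochromes P450, had 1.44 and -1.48, and 2.9 and -1.23.

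The reverse class, lower in root tips and higher in shoot apices, held genes of hormone synthesis, defence metabolism and sugar export. For NCED9 (AT1G78390), an enzyme of the committed step of abscisic acid synthesis, the libraries gave 0.892, 1.08 and 0.834 CPM in rh27-2 root tips, against 7.95, 7.05 and 7.32 CPM in WT root tips. Its level was 6.62, 6.23 and 7.02 CPM in rh27-2 shoot apices, against 0.851, 1.73 and 1.04 CPM in WT shoot apices. All 3 rh27-2 libraries were lower than the WT ones in root tips and higher in shoot apices. NCED9 had an interaction of -5.42 ± 0.32 (SE, adjusted p = 1.13e-06), from log2 changes of -2.99 ± 0.19 in root tips and 2.37 ± 0.28 in shoot apices. SWEET12 (AT5G23660), a sucrose exporter that feeds the phloem, had 13.6, 16.6 and 13.1 CPM in rh27-2 root tips, against 66.1, 66.2 and 81.5 CPM in WT root tips. Shoot libraries gave 44, 24.3 and 18.7 CPM in rh27-2 shoot apices, against 7.47, 7.85 and 7.64 CPM in WT shoot apices. In each organ the genotypes separated, and rh27-2 was lower than every WT library in root tips and higher in shoot apices. SWEET12 changed on the log2 scale by -2.31 ± 0.11 in root tips, beside 1.86 ± 0.31 in shoot apices (SE), and the interaction was -4.22 ± 0.36 (adjusted p = 9.89e-06). A jasmonate-inducible tyrosine aminotransferase, TAT3 (AT2G24850), was at 5.61, 2.84 and 2.01 CPM in rh27-2 root tips, against 42.1, 43.1 and 102 CPM in WT root tips. Values of TAT3 in the other organ were 41.7, 138 and 188 CPM in rh27-2 shoot apices, against 8.26, 23.4 and 8.08 CPM in WT shoot apices. The genotypes did not overlap in either organ, with rh27-2 lower in root tips and higher in shoot apices. Tests by organ gave log2 changes of -4.17 ± 0.64 in root tips and 3.14 ± 0.65 in shoot apices, with an interaction of -7.36 ± 0.93 (SE, adjusted p = 0.000125). For ACS2 (AT1G01480), an ACC synthase, which makes the ethylene precursor, the libraries gave 4.62, 4.44 and 4.56 CPM in rh27-2 root tips, against 13.8, 14.7 and 18.4 CPM in WT root tips. In the other organ ACS2 had 16.4, 19.4 and 33.3 CPM in rh27-2 shoot apices, against 3.16, 7.74 and 3.33 CPM in WT shoot apices. The 3 libraries of rh27-2 were lower than the WT ones in root tips and higher in shoot apices. ACS2 had an interaction of -4.05 ± 0.48 (SE, adjusted p = 7.99e-05), from log2 changes of -1.78 ± 0.13 in root tips and 2.21 ± 0.42 in shoot apices. Log2 changes in root tips and shoot apices were -3.58 and 1.9 for FAMT, a methyltransferase of farnesoic acid, -1.88 and 1.96 for IGMT1, a methyltransferase of indole glucosinolates, and -2.8 and 1.8 for CYP84A4, a cytochrome P450. They were -2.99 and 1.93 for the annexin gene ANNAT4, -2.18 and 1.75 for MSRB7, a methionine sulfoxide reductase, and -1.75 and 2.96 for MDHAR, a monodehydroascorbate reductase that recycles the antioxidant ascorbate.

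**Figure D2:**
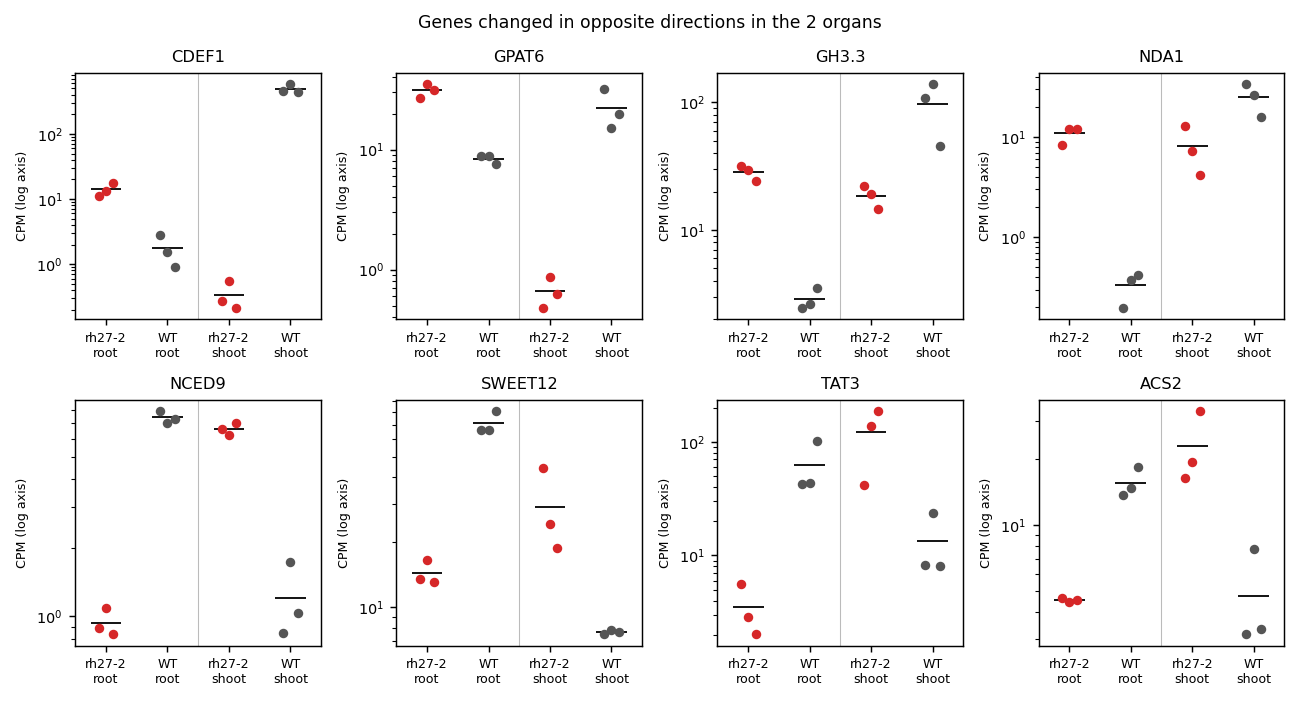
CPM on a log axis in each of the 12 libraries for 8 genes that changed in opposite directions (points are libraries, lines are means of 3). In the upper row rh27-2 is above WT in root tips and below it in shoot apices, and in the lower row the reverse holds, with no overlap of genotypes in any panel.

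Among the 274 genes that rose in root tips only were regulators of growth and stress. ANT (AT4G37750), an AP2-type transcription factor that keeps organ primordia growing, had 9.97, 8.22 and 9.42 CPM in rh27-2 root tips, against 1.17, 1.75 and 1.57 CPM in WT root tips. Its level was 84.8, 65.5 and 68.4 CPM in rh27-2 shoot apices, against 105, 75 and 79.7 CPM in WT shoot apices. Only the root libraries separated by genotype, with rh27-2 higher. The log2 change was 2.63 ± 0.18 in root tips, beside -0.31 ± 0.16 in shoot apices (SE), and the interaction was 2.88 ± 0.25 (adjusted p = 1.01e-05). An ethylene response factor, ERF2 (AT5G47220), was at 10.7, 8.27 and 3.97 CPM in rh27-2 root tips, against 1.12, 1.12 and 1.21 CPM in WT root tips. Shoot libraries gave 136, 115 and 109 CPM in rh27-2 shoot apices, against 118, 126 and 101 CPM in WT shoot apices. The rh27-2 root libraries were all higher than the WT ones, and the shoot libraries overlapped. This gave log2 changes of 2.72 ± 0.42 in root tips and -0.00064 ± 0.13 in shoot apices, with an interaction of 2.66 ± 0.41 (SE, adjusted p = 0.000445). For ABI5 (AT2G36270), a bZIP factor of abscisic acid signalling in seeds, the libraries gave 10.7, 15.1 and 13.4 CPM in rh27-2 root tips, against 1.27, 1.62 and 1.57 CPM in WT root tips. The shoot values of ABI5 were 15.7, 13.7 and 14 CPM in rh27-2 shoot apices, against 8.81, 12.4 and 17.42 CPM in WT shoot apices. Only the root libraries separated by genotype, with rh27-2 higher. ABI5 had an interaction of 2.97 ± 0.34 (SE, adjusted p = 5.80e-05), from log2 changes of 3.14 ± 0.18 in root tips and 0.10 ± 0.25 in shoot apices. HAK5, a high-affinity potassium transporter, had root changes and shoot changes of 3.66 and 0.030, and PLA2A, a lipid acyl hydrolase of defence, had 2.66 and -0.16. LTP5, a lipid transfer protein, was nearly absent from WT root tips, with 13.9, 23.4 and 19.7 CPM in rh27-2 root tips, against 0.146, 0.0624 and 0.181 CPM in WT root tips. On the log2 scale, FAF4, CAD9 and ERF12 rose by 4.03, 3.25 and 2.88 in root tips, and GOX2, a glycolate oxidase of photorespiration, by 3.22.

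The 159 genes that fell in root tips only included transporters of water and sugar. PIP1;3 (AT1G01620), a plasma membrane aquaporin, had 373, 385 and 370.4 CPM in rh27-2 root tips, against 1727, 1555 and 1766 CPM in WT root tips. PIP1;3 shoot values were 581, 454 and 604 CPM in rh27-2 shoot apices, against 529, 445 and 651 CPM in WT shoot apices. The rh27-2 root libraries were all lower than the WT ones, and the shoot libraries overlapped. Its log2 change was -2.17 ± 0.058 in root tips, beside -0.050 ± 0.20 in shoot apices (SE), and the interaction was -2.17 ± 0.20 (adjusted p = 1.51e-05). A repressor of jasmonate responses, JAZ9 (AT1G70700), was at 5.19, 3.56 and 2.99 CPM in rh27-2 root tips, against 16.1, 12.2 and 23.1 CPM in WT root tips. Its level was 393, 502 and 439.9 CPM in rh27-2 shoot apices, against 437, 728 and 295 CPM in WT shoot apices. Only the root libraries separated by genotype, with rh27-2 lower. The fits gave log2 changes of -2.13 ± 0.30 in root tips and -0.19 ± 0.31 in shoot apices, with an interaction of -2.0 ± 0.47 (SE, adjusted p = 0.00535). For SWEET16 (AT3G16690), a sugar transporter of the vacuole membrane, the libraries gave 6.4, 4.86 and 4.71 CPM in rh27-2 root tips, against 28.1, 29.6 and 33.7 CPM in WT root tips. Shoot libraries gave 12.5, 12.6 and 10.6 CPM in rh27-2 shoot apices, against 14.8, 13.2 and 11.1 CPM in WT shoot apices. The rh27-2 root libraries were all lower than the WT ones, and the shoot libraries overlapped. SWEET16 had an interaction of -2.39 ± 0.21 (SE, adjusted p = 1.08e-05), from log2 changes of -2.52 ± 0.12 in root tips and -0.19 ± 0.15 in shoot apices. On the log2 scale, the others named by the same rule fell by 2.26 for DIN10, a raffinose synthase-like gene induced in the dark, 2.3 for GSTU26, a glutathione transferase, 2.26 for the meiotic cyclin SDS, 2.04 for ELP, annotated as an extensin-like protein, and 2.0 for AGT2, an alanine:glyoxylate aminotransferase. ZW9 and MEE16 fell by 2.32 and 2.1. Under total count scaling SDS kept its interaction call, but not its place among genes that respond in root tips only.

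In shoot apices only, 338 genes rose, among them genes of the wall, of transport and of methyl or glutathione transfer. LAC11 (AT5G03260), a laccase that polymerises lignin, had 105, 122 and 122 CPM in rh27-2 root tips, against 129, 109 and 136 CPM in WT root tips. Values of LAC11 in the other organ were 75.2, 71.8 and 47.9 CPM in rh27-2 shoot apices, against 8.14, 7.03 and 5.13 CPM in WT shoot apices. Only the shoot libraries separated by genotype, with rh27-2 higher. LAC11 changed on the log2 scale by -0.10 ± 0.087 in root tips, beside 3.21 ± 0.24 in shoot apices (SE), and the interaction was -3.36 ± 0.26 (adjusted p = 5.65e-06). An enzyme that cuts and rejoins xyloglucan in cell walls, XTH17 (AT1G65310), was at 126, 123 and 123 CPM in rh27-2 root tips, against 122, 123 and 148 CPM in WT root tips. In the other organ XTH17 had 337, 223 and 225 CPM in rh27-2 shoot apices, against 32.3, 21.4 and 31 CPM in WT shoot apices. The rh27-2 shoot libraries were all higher than the WT ones, and the root libraries overlapped. Tests by organ gave log2 changes of -0.085 ± 0.070 in root tips and 3.16 ± 0.24 in shoot apices, with an interaction of -3.3 ± 0.26 (SE, adjusted p = 5.56e-06). For UMAMIT14 (AT2G39510), an amino acid exporter, the libraries gave 46.2, 74.3 and 64.3 CPM in rh27-2 root tips, against 63, 66 and 69 CPM in WT root tips. Its level was 8.05, 10.1 and 4.49 CPM in rh27-2 shoot apices, against 0.304, 0.866 and 0.874 CPM in WT shoot apices. Only the shoot libraries separated by genotype, with rh27-2 higher. UMAMIT14 had an interaction of -3.54 ± 0.46 (SE, adjusted p = 0.000145), from log2 changes of -0.10 ± 0.17 in root tips and 3.38 ± 0.46 in shoot apices. Log2 changes in shoot apices were 3.51 for the purple acid phosphatase PAP8, 2.43 for NAMT1, a nicotinate methyltransferase, 2.08 for ABCG25, which exports abscisic acid, 2.21 for SUS5, a sucrose synthase of sieve elements, and 2.56 for the glutathione transferase GSTU6. SSL1 and MAPKKK19 rose by 2.31 and 2.25. With total counts in place of TMM, SSL1 and SUS5 were called higher in root tips too.

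The 421 genes that fell in shoot apices only included a regulator of leaf cells and wax and cutin enzymes. TCP4 (AT3G15030), a TCP transcription factor that ends cell division in young leaves and is a target of miR319, had 5.14, 6.2 and 6.87 CPM in rh27-2 root tips, against 5.22, 5.18 and 4.11 CPM in WT root tips. Shoot libraries gave 4.85, 2.76 and 4.77 CPM in rh27-2 shoot apices, against 64, 46.8 and 53.1 CPM in WT shoot apices. The rh27-2 shoot libraries were all lower than the WT ones, and the root libraries overlapped. The log2 change was 0.32 ± 0.16 in root tips, beside -3.79 ± 0.24 in shoot apices (SE), and the interaction was 4.07 ± 0.30 (adjusted p = 3.30e-06). An enzyme of wax alkane synthesis, CER1 (AT1G02205), was at 5.56, 13.4 and 7.6 CPM in rh27-2 root tips, against 8.15, 8.99 and 9.31 CPM in WT root tips. The shoot values of CER1 were 19.2, 11.7 and 13.8 CPM in rh27-2 shoot apices, against 258, 97.1 and 66.5 CPM in WT shoot apices. Only the shoot libraries separated by genotype, with rh27-2 lower. This gave log2 changes of 0.0033 ± 0.31 in root tips and -3.29 ± 0.52 in shoot apices, with an interaction of 3.25 ± 0.67 (SE, adjusted p = 0.00255). For DCR (AT5G23940), an acyltransferase needed for cutin, the libraries gave 5.25, 4.13 and 5.35 CPM in rh27-2 root tips, against 4.0, 3.75 and 4.29 CPM in WT root tips. DCR shoot values were 30.8, 23.4 and 27.5 CPM in rh27-2 shoot apices, against 321, 139 and 96.6 CPM in WT shoot apices. The rh27-2 shoot libraries were all lower than the WT ones, and the root libraries overlapped. DCR had an interaction of 3.06 ± 0.54 (SE, adjusted p = 0.00104), from log2 changes of 0.29 ± 0.16 in root tips and -2.82 ± 0.43 in shoot apices. Shoot log2 changes were -2.93 for UMAMIT33, -2.59 for NAKR2, -2.43 for the locus annotated MIR414, -2.116 for the alkaline/neutral invertase A/N-InvB, -2.08 for GH3.5, which joins auxin to amino acids, and -1.86 for HY2, which makes the phytochrome chromophore. With total counts in place of TMM, TCP4, NAKR2 and HY2 were also called higher in root tips, so they would count as changed in opposite directions.

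**Figure D3:**
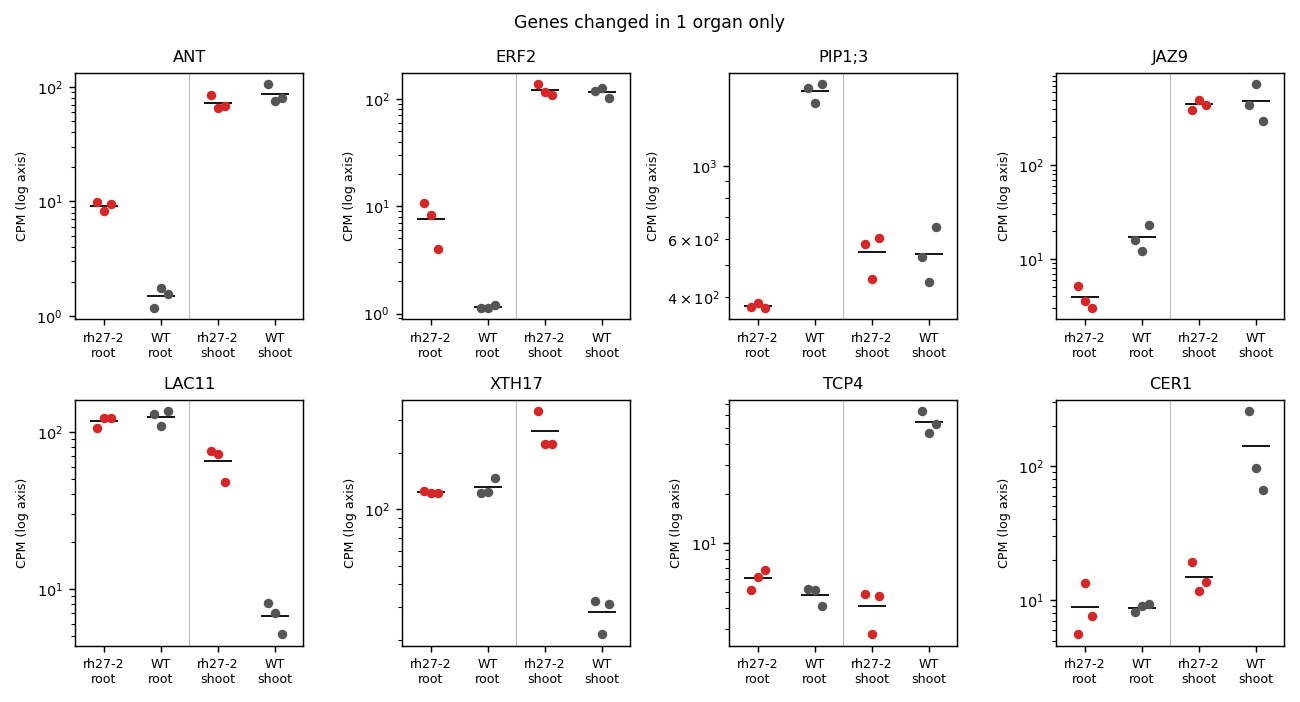
CPM on a log axis in each of the 12 libraries for 8 genes called in 1 organ only (points are libraries, lines are means of 3). ANT, ERF2, PIP1;3 and JAZ9 separate by genotype in root tips only, and LAC11, XTH17, TCP4 and CER1 in shoot apices only.

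A further set of genes changed in the same direction in both organs but by unequal factors. Of these, 269 rose more in root tips (1.52%), 419 rose more in shoot apices (2.37%), 48 fell more in root tips (0.271%) and 259 fell more in shoot apices (1.46%). The first count was 150 without rh27-2 shoot replicate 2. The third was 23 without that library, 22 without rh27-2 shoot replicate 3, and 31 without either WT root replicate 3 or rh27-2 root replicate 3. The last was 153 to 170 without any 1 of the 3 WT root libraries or of rh27-2 root replicates 1 and 2. Same-numbered shoot libraries deviated together, and with the replicate number as a block in shoot apices the third count was 97, or 80 with the block in both organs. SULTR3;2, a sulfate transporter family member, had 33.1, 34.8 and 31 CPM in rh27-2 root tips, against 0.342, 0.749 and 0.363 CPM in WT root tips, and 15.9, 20.15 and 20.8 CPM in rh27-2 shoot apices, against 4.25, 4.03 and 4.37 CPM in WT shoot apices. It was higher in every rh27-2 library of both organs, with log2 changes of 6.1 and 2.1 and an interaction of 3.93 ± 0.28 (SE, adjusted p = 2.94e-06). Changes in root tips and shoot apices were 8.46 and 1.99 for EARLI1, a lipid transfer protein-like gene that was nearly absent from WT root tips, 6.34 and 2.27 for the pectin methylesterase gene ATPMEPCRB, and 5.72 and 1.97 for sks9. The remaining interaction calls were 4495 that met none of these rules and 731 in genes tested in only 1 organ, and 346 calls were in genes that passed in neither organ alone.

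The functions of these genes were read through 48 gene lists, with each count set beside the 21.4% positive and 22.6% negative calls over all genes, and each median interaction beside 0.062 over all genes. Pairs of values given with a gene are its log2 changes in root tips and, after it, in shoot apices. The machinery of growth leaned to positive interactions. Of 20 ribosome biogenesis factors, 17 had an interaction call, each positive, with a median of 0.53. All 20 rose in root tips, where 31.3% of all genes did, while 2 rose and 1 fell in shoot apices. PUM23 (AT1G72320), a Pumilio protein of the nucleolus that acts in rRNA processing, had 74.1, 81.2 and 80.8 CPM in rh27-2 root tips, against 52.4, 51.5 and 50.1 CPM in WT root tips. Its level was 62.9, 62 and 56 CPM in rh27-2 shoot apices, against 67.4, 66.7 and 71.4 CPM in WT shoot apices. Each rh27-2 library was higher than every WT library in root tips and lower in shoot apices. Its log2 change was 0.61 ± 0.057 in root tips, beside -0.24 ± 0.10 in shoot apices (SE), and the interaction was 0.80 ± 0.10 (adjusted p = 0.000129). The shoot change of PUM23 did not pass its own test, so it was not called in opposite directions. PUM24 and NAP57, the nucleolar pseudouridine synthase, had root and shoot changes of 0.98 and 0.17, and of 0.67 and 0.039, and NUG2, a nucleolar GTPase of large subunit assembly, had 0.37 and -0.35 and passed in opposite directions. Of 23 cytosolic ribosomal protein genes, 12 passed, each positive, with a median of 0.38; this count was 8 with RLE size factors, 20 with total counts, 19 without WT shoot replicate 3 and 7 without either WT root replicate 3 or rh27-2 root replicate 1. A negative call, 1 in each case, came with RLE size factors, DESeq2, limma voom, the block in shoot apices, and without WT shoot replicate 2 or rh27-2 shoot replicate 1. RPL16A and RPS18C passed in opposite directions with 0.21 and -0.82, and with 0.21 and -0.39.

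Cell cycle genes differed in the organ that carried the change. Of 30 mitosis genes, 15 passed, each positive, with a median of 0.83; 6 of the 30 fell in shoot apices only and 3 fell in both organs but more in shoot apices. Without WT shoot replicate 3, or with limma voom, 23 were positive. An A-type cyclin, CYCA2;4 (AT1G80370), was at 23.2, 24.2 and 25.5 CPM in rh27-2 root tips, against 22.2, 27.8 and 23.1 CPM in WT root tips. Shoot libraries gave 12.2, 9.7 and 11.6 CPM in rh27-2 shoot apices, against 41, 25.5 and 21.5 CPM in WT shoot apices. The rh27-2 shoot libraries were all lower than the WT ones, and the root libraries overlapped. The fits gave log2 changes of -0.0050 ± 0.092 in root tips and -1.45 ± 0.24 in shoot apices, with an interaction of 1.39 ± 0.29 (SE, adjusted p = 0.00273). CDC20.2, an activator of the anaphase-promoting complex, had root and shoot changes of 0.23 and -1.01, CYCA2;3 had -0.79 and -1.72 and CYCB2;3 had -0.31 and -1.18. Of 27 DNA replication genes, 12 passed, each positive, with a median of 0.26, and 7 were positive without WT shoot replicate 2, WT root replicate 1 or rh27-2 root replicate 2. Without WT shoot replicate 1, 1 was negative. For RNR2A (AT3G23580), a small subunit of ribonucleotide reductase, which makes deoxynucleotides, the libraries gave 25.5, 29.4 and 24.8 CPM in rh27-2 root tips, against 11.3, 9.12 and 10.6 CPM in WT root tips. Values of RNR2A in the other organ were 20.4, 22.4 and 16.8 CPM in rh27-2 shoot apices, against 46.5, 46.5 and 28.6 CPM in WT shoot apices. All 3 rh27-2 libraries were higher than the WT ones in root tips and lower in shoot apices. RNR2A had an interaction of 2.38 ± 0.26 (SE, adjusted p = 4.77e-05), from log2 changes of 1.35 ± 0.10 in root tips and -1.08 ± 0.21 in shoot apices. RNR1, the large subunit, had 0.97 and -0.23, ETG1, a binding protein of the MCM helicase, had 0.42 and -0.24, and POLA2, a subunit of primase-polymerase alpha, had 0.34 and -0.40. Of 25 CDK inhibitors and DNA damage genes, 7 were positive and 3 negative, with 5 negative without WT shoot replicate 1 or with the block in shoot apices and 11 positive with total counts. Among them KRP2, an inhibitor of cyclin-dependent kinases, had -0.67 and 1.1, the reverse of PARP1, a sensor of DNA breaks, with 0.35 and -0.41, and the DNA damage genes RAD17 and XRI1 had 1.77 and 0.59, and 1.19 and 0.10.

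Plastid genes had positive interactions through different organs. Of 21 genes of plastid gene expression, 13 were positive and 1 negative (median 1.07). Negative calls numbered 0 with total counts or without any 1 of 6 libraries. These were WT shoot replicate 3, rh27-2 shoot replicates 2 and 3, WT root replicates 1 and 2, and rh27-2 root replicate 3. Of the 20 genes tested in both organs, 10 fell in shoot apices only, where 2.38% of all genes did. SIG1 (AT1G64860), a sigma factor that guides plastid RNA polymerase to promoters, had 20.25, 20.15 and 20.5 CPM in rh27-2 root tips, against 14.9, 19.4 and 18 CPM in WT root tips. In the other organ SIG1 had 40.1, 33.1 and 35.9 CPM in rh27-2 shoot apices, against 100.3, 86 and 79.7 CPM in WT shoot apices. In each organ the genotypes separated, and rh27-2 was higher than every WT library in root tips and lower in shoot apices. SIG1 changed on the log2 scale by 0.22 ± 0.10 in root tips, beside -1.34 ± 0.13 in shoot apices (SE), and the interaction was 1.51 ± 0.17 (adjusted p = 4.79e-05). The root change did not pass its own test, so SIG1 was called in shoot apices only. PTAC2 and PTAC3, proteins of the transcriptionally active plastid chromosome, had root and shoot changes of -0.14 and -1.62, and of 0.10 and -1.79, and SIG6 had -0.037 and -1.16. Under total count scaling SIG1 was also called higher in root tips. Of 38 photosystem and light harvesting genes, 17 were positive and 1 negative (median 1.26). Among the 32 tested in both organs, 29 fell in shoot apices, where 19.8% of all genes did. In root tips 5 of these 32 rose, where 31.3% of all genes did, and 8 fell, where 30.9% did, so neither stood above the share over all genes. PSAL, a photosystem I subunit, had 8.29, 5.53 and 2.85 CPM in rh27-2 root tips, against 1.42, 1.19 and 2.36 CPM in WT root tips, and 768, 492 and 489.6 CPM in rh27-2 shoot apices, against 1089, 1169 and 1070.0 CPM in WT shoot apices. It rose in root tips, by 1.74, and fell in shoot apices, by 0.99, although the root levels were far below the shoot levels. PSBQ-2 and LHCA2 had 0.14 and -1.16, and 0.48 and -1.12. LHCB1.3 had 0.94 and -1.59, and its near-identical copies may share reads with it.

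Carbon fixation and photorespiration was the list with the highest median, at 2.41, among lists with 8 or more members tested in both organs. Of its 22 genes, 12 passed, each positive (1 was negative with the replicate block). Of the 19 tested in both organs, 11 rose in root tips, where 31.3% of all genes did, and 4 fell there. A plastid fructose-bisphosphate aldolase, FBA2 (AT4G38970), was at 19.4, 14.4 and 8.63 CPM in rh27-2 root tips, against 0.195, 0.624 and 0.302 CPM in WT root tips. Its level was 1379, 693 and 423 CPM in rh27-2 shoot apices, against 1984, 1403 and 912 CPM in WT shoot apices. Only the root libraries separated by genotype, with rh27-2 higher. Tests by organ gave log2 changes of 5.26 ± 0.52 in root tips and -0.84 ± 0.46 in shoot apices, with an interaction of 6.05 ± 0.82 (SE, adjusted p = 0.000194). RBCS1A, a small subunit of Rubisco, had 42.1, 34.2 and 12.2 CPM in rh27-2 root tips, against 8.54, 12.2 and 12.9 CPM in WT root tips, and 7326, 3144 and 2103 CPM in rh27-2 shoot apices, against 10240.0, 7414 and 6082 CPM in WT shoot apices. Its genotypes overlapped in both organs, rh27-2 root replicate 3 lay among the WT root libraries, and near-identical copies of the gene may share reads. Its log2 changes were 1.4 and -0.97, and its interaction was 2.31 ± 0.69 (SE, adjusted p = 0.0185). Of 21 chlorophyll genes, 8 were positive and 1 negative, with 15 positive under the replicate block in shoot apices, 13 with total counts or limma voom, and 5 without any 1 of 4 root libraries (WT replicates 2 and 3, rh27-2 replicates 1 and 2). Among the 20 chlorophyll genes tested in both organs, 14 fell in root tips, where 30.9% of all genes did. In shoot apices 18 of them fell, where 19.8% of all genes did, and 1 rose in each organ. PORB, a protochlorophyllide reductase, had changes of 0.75 and -2.85, FLU, a brake on chlorophyll synthesis, had -0.0071 and -1.07, and HEMA2, an enzyme at the head of the pathway, had -0.28 and 0.94. Of 22 light signalling genes, 5 were positive and 1 negative, with 1.25 and -0.36 for PIF1 and 0.28 and -0.66 for the photoreceptor PHYE. The negative count was 2 with limma voom or without rh27-2 shoot replicate 1, and 0 with total counts, with the block in both organs, or without WT shoot replicate 2, rh27-2 shoot replicate 2 or 3, WT root replicate 1 or 3 or rh27-2 root replicate 1 or 3.

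Positive calls outnumbered negative ones in the leaf growth, stomatal and cuticle lists, but not among leaf hair genes. In the leaf growth and polarity list, 27 of 43 were positive and 5 negative (median 1.46), or 3 negative with total counts. However, 16 of the 43 could not be tested in both organs because their levels were too low in one. The counts and the median of 1.46 include these genes. For the 27 members tested in both organs, root changes had a median of 0.23 and shoot changes one of -0.31, a narrower gap than 1.46. GRF1 and GRF3, growth-regulating factors, had root and shoot changes of -0.51 and -2.77, and 0.49 and -1.42. In the stomatal list 7 of 15 passed (13 with limma voom), each positive, but 3 of the 15 could be tested in both organs; SCRM, a partner of SPCH, fell in shoot apices only (0.10 and -1.32). These lists overlap with the leaf markers, whose levels in shoot apices moved with genotype as given above. Cuticle genes were positive in 19 of 30 and negative in 3, or 5 without WT shoot replicate 1 (median 1.55). Of the 26 tested in both organs, 20 were higher in root tips of rh27-2, where 31.3% of all genes were. For CER5 (AT1G51500), an ABC transporter that exports wax, the libraries gave 10.3, 8.11 and 7.5 CPM in rh27-2 root tips, against 1.42, 1.12 and 0.907 CPM in WT root tips. Shoot libraries gave 126, 162 and 155 CPM in rh27-2 shoot apices, against 111, 92.6 and 102 CPM in WT shoot apices. The 3 libraries of rh27-2 were higher than the WT ones in both organs. CER5 had an interaction of 2.35 ± 0.24 (SE, adjusted p = 2.92e-05), from log2 changes of 2.88 ± 0.21 in root tips and 0.48 ± 0.13 in shoot apices. PDF1 (AT2G42840), a marker of the outermost cell layer, had 9.02, 9.4 and 9.52 CPM in rh27-2 root tips, against 0.342, 0.624 and 0.423 CPM in WT root tips. The shoot values of PDF1 were 656, 655 and 738 CPM in rh27-2 shoot apices, against 1405, 1071 and 984 CPM in WT shoot apices. Each rh27-2 library was higher than every WT library in root tips and lower in shoot apices. The log2 change was 4.34 ± 0.21 in root tips, beside -0.81 ± 0.17 in shoot apices (SE), and the interaction was 5.09 ± 0.26 (adjusted p = 7.80e-07). HDG11, a homeodomain factor of the epidermis, had 0.71 and -1.24. Of 19 leaf hair and non-hair fate genes, 3 were positive and 3 negative, or 5 negative without WT shoot replicate 1 or with the block in shoot apices and 5 positive with limma voom, and EGL3, a bHLH factor of epidermal patterning, fell in root tips only (-1.51 and -0.35).

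**Figure D4:**
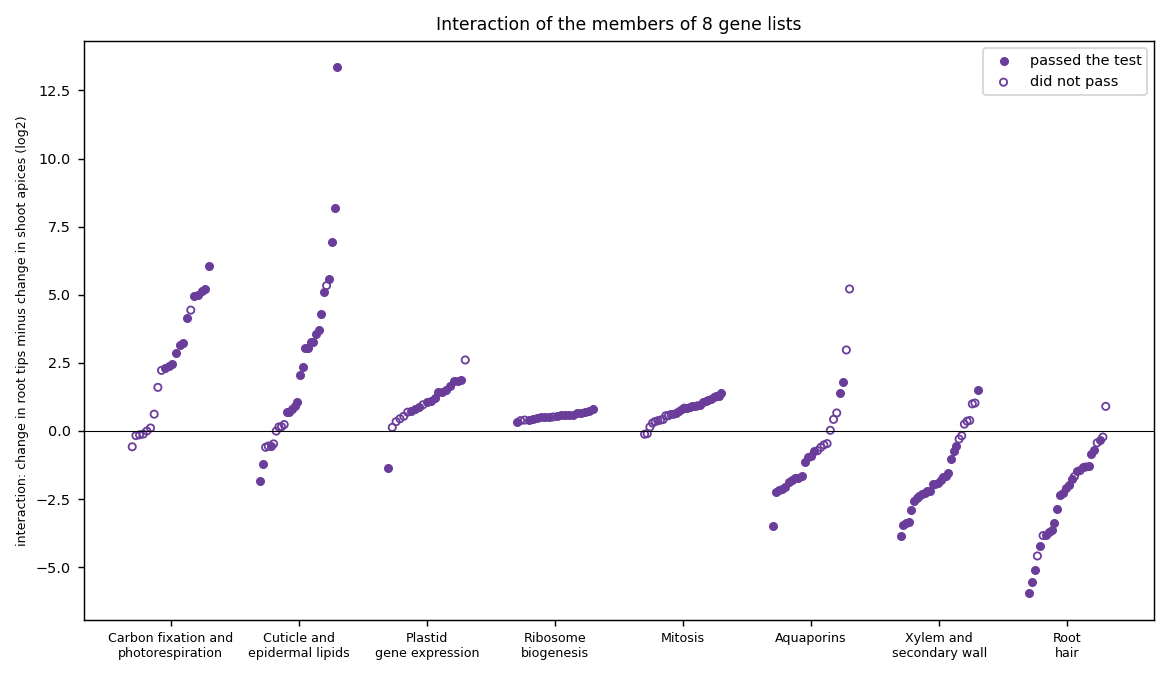
Interaction (change in root tips minus change in shoot apices, log2) of each tested member of 8 gene lists, with filled points for members that passed the test. Ribosome biogenesis members lie close together just above 0, cuticle members spread up to 13.36, and most xylem and root hair members lie below 0. Members too low in an organ to be tested there are included.

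Root hair and endodermis genes had more negative than positive calls. Of 28 root hair genes, 20 passed, each negative (median -2.03), but only 12 of the 28 could be tested in both organs. The count of 20 and the median include members too low in an organ to be tested there. For the 12 tested in both, root changes had a median of -0.48 and shoot changes one of 0.94, a narrower gap than the -2.03. Of these 12, 7 fell in root tips and rose in shoot apices, as 6.32% of all genes did. A bHLH factor that promotes root hair growth, LRL1 (AT2G24260), was at 75, 65 and 64.9 CPM in rh27-2 root tips, against 106, 111 and 107 CPM in WT root tips. LRL1 shoot values were 9.08, 10.8 and 10.7 CPM in rh27-2 shoot apices, against 3.52, 4.13 and 3.6 CPM in WT shoot apices. The genotypes did not overlap in either organ, with rh27-2 lower in root tips and higher in shoot apices. This gave log2 changes of -0.67 ± 0.062 in root tips and 1.38 ± 0.16 in shoot apices, with an interaction of -2.1 ± 0.14 (SE, adjusted p = 2.20e-06). RHD4, a phosphoinositide phosphatase of growing hairs, had -0.63 and 0.64, CSLD3, a cellulose synthase-like protein of hair tips, had -0.32 and 0.89, and LRL2, a relative of LRL1, rose in shoot apices only (-0.021 and 1.4). Of 22 endodermis and suberin genes, 9 were negative and 1 positive (2 without rh27-2 shoot replicate 3), but 9 of the 22 could be tested in both organs. Changes were -0.62 and 0.55 for KCS20 and -0.092 and 1.36 for KCS1, both elongases of very long fatty acids. Aquaporins were negative in 14 of 25 and positive in 2 (median -0.93). With the block in shoot apices 4 were positive. Of the 23 aquaporins tested in both organs, 17 fell in root tips, where 30.9% of all genes did. The fall was in root tips only for 6, a class with 0.899% of all genes. PIP2;4 had opposite changes of -2.13 and 1.32, while PIP1;4 and PIP2;7 fell in root tips only (-1.93 and -0.16, and -1.57 and 0.019); aquaporin genes are similar in sequence and may share reads. Of 9 root cap genes, of which 4 could be tested in both organs, 1 was positive and 3 were negative, with 2 positive with total counts, with the block or without WT shoot replicate 3 or rh27-2 shoot replicate 2, and WRKY14 had -0.62 and 1.67 with BFN1, a nuclease of dying cells, at 0.33 and 1.83.

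In the stem cell niche and ground tissue list of the root, 7 of 23 were positive and 4 negative. Negative calls numbered 1 without WT shoot replicate 2, WT root replicate 2 or 3 or rh27-2 root replicate 2, and 2 without WT shoot replicate 1 or any 1 of the rh27-2 shoot libraries or without the filter. With total counts 11 were positive and 1 negative. For PLT5 (AT5G57390), an AP2-type factor of lateral root and organ initiation, the libraries gave 41.4, 59.4 and 53.1 CPM in rh27-2 root tips, against 2.0, 2.87 and 1.39 CPM in WT root tips. Its level was 57.8, 48.9 and 50.8 CPM in rh27-2 shoot apices, against 19.3, 17.9 and 21.1 CPM in WT shoot apices. All 3 rh27-2 libraries were higher than the WT ones in both organs. PLT5 had an interaction of 3.19 ± 0.27 (SE, adjusted p = 8.87e-06), from log2 changes of 4.62 ± 0.23 in root tips and 1.37 ± 0.13 in shoot apices. PLT3 had 1.98 and 0.82, and TMO5, a bHLH factor of early vascular cells, had 0.85 and -0.71. WOX5, the marker of the root quiescent centre, averaged 7.24 CPM in rh27-2 and 0.924 CPM in WT root tips, but 0.780 CPM in rh27-2 and 4.73 CPM in WT shoot apices. In the list of shoot meristem and KNOX genes, 7 of 22 were positive (4 without WT root replicate 2) and 3 negative (1 with total counts or without rh27-2 shoot replicate 1, WT root replicate 1 or 3 or rh27-2 root replicate 2 or 3), with 3.06 and 1.1 for LSH3, a boundary gene, and 0.66 and -1.24 for CRN, a receptor-like protein that restrains the meristem.

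Vascular genes held many opposite changes. Of 30 xylem and secondary wall genes, 22 were negative and 1 positive (median -1.86). The positive count was 2 with limma voom or without WT shoot replicate 2 or 3, rh27-2 shoot replicate 1, WT root replicate 1 or rh27-2 root replicate 1, and 3 with the block or total counts. Of the 29 tested in both organs, 14 fell in root tips and rose in shoot apices, as 6.32% of all genes did. A further 4 rose in shoot apices only, where 1.91% of all genes did. XCP1 (AT4G35350), a protease of dying xylem vessels, had 116, 124 and 125 CPM in rh27-2 root tips, against 174, 143 and 171 CPM in WT root tips. Shoot libraries gave 88.8, 76.9 and 63.4 CPM in rh27-2 shoot apices, against 11.1, 9.68 and 6.93 CPM in WT shoot apices. In each organ the genotypes separated, and rh27-2 was lower than every WT library in root tips and higher in shoot apices. Its log2 change was -0.42 ± 0.070 in root tips, beside 2.99 ± 0.21 in shoot apices (SE), and the interaction was -3.46 ± 0.23 (adjusted p = 2.05e-06). The related XCP2 had -0.71 and 1.62, LAC4, a lignin laccase, had -0.69 and 1.71, and VND4, a NAC factor that switches on vessel formation, had -0.62 and 1.27. The sum of the 4 vascular markers given above moved the same way by organ, but XCP1 and XCP2 hold most of that sum, so it is no separate observation. Of the other markers, SUC2 averaged 12.4 CPM in rh27-2 and 43 CPM in WT root tips, and 45.1 and 30.8 CPM in shoot apices. APL was higher in rh27-2 in both organs, with 11.7 and 9.62 CPM in root tips and 17.1 and 6.27 CPM in shoot apices. The part of the marker shifts in these changes was not tested. Monolignol and lignan genes were negative in 11 of 23 and positive in 3. PRX72, a lignin peroxidase, and PRR1, a lignan reductase, had -0.20 and 3.61, and -0.83 and 1.76, PRR2 rose in both organs (0.35 and 3.71), and DIR6, a dirigent protein, rose in shoot apices only (0.072 and 2.03). Of 26 phloem genes, 12 were negative and 5 positive (8 with total counts). SEOR1, which forms filaments in sieve elements, had -0.84 and 1.76, FTIP1, which moves the florigen, rose in shoot apices only (-0.11 and 1.26), and SMXL5, which promotes early phloem, rose in root tips only (1.2 and -0.19). Wall loosening genes were positive in 8 of 33 and negative in 12, with -0.21 and 0.79 for the endoglucanase KOR and with 0.67 and 3.35 for XTH31.

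**Figure D5:**
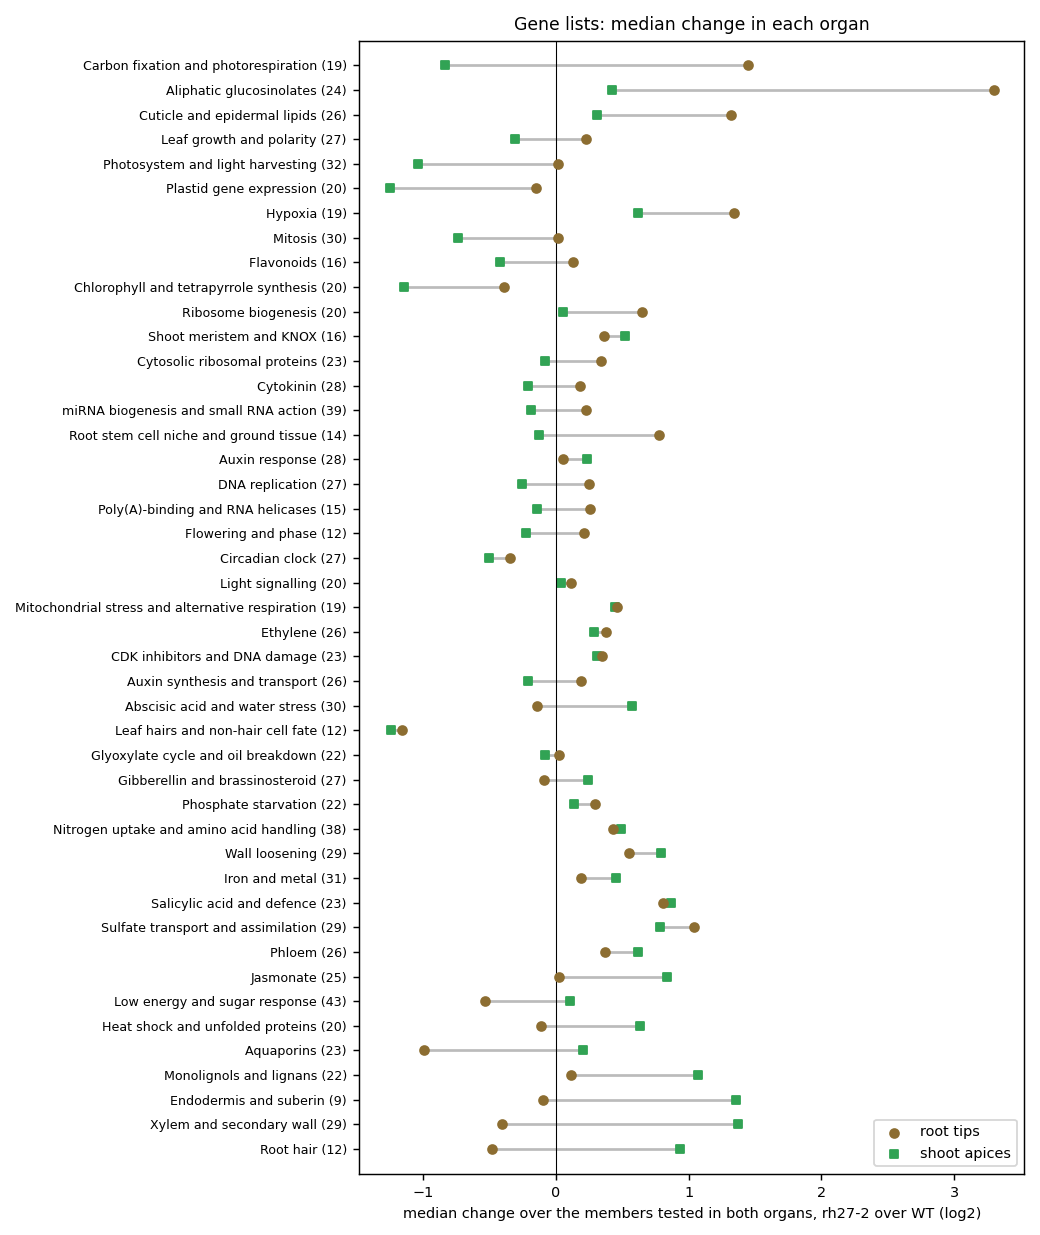
Median log2 change (rh27-2 over WT) in root tips (circles) and shoot apices (squares) for each gene list with 8 or more members tested in both organs, whose number stands in brackets, ordered by the median interaction over all tested members. Carbon fixation, aliphatic glucosinolates, cuticle, leaf growth and photosystem genes lie at the top with the root median to the right, and xylem and root hair lists at the bottom with the shoot median to the right.

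Hormone lists held opposite changes in both directions. Of 33 auxin response genes, 11 were positive and 12 negative. MONOPTEROS, an auxin response factor that patterns the vasculature, ARF5 (AT1G19850), was at 109, 117 and 121 CPM in rh27-2 root tips, against 25.1, 27.2 and 31.4 CPM in WT root tips. Values of ARF5 in the other organ were 89.4, 91.9 and 103 CPM in rh27-2 shoot apices, against 101, 97.1 and 77 CPM in WT shoot apices. Only the root libraries separated by genotype, with rh27-2 higher. The fits gave log2 changes of 2.05 ± 0.078 in root tips and -0.015 ± 0.13 in shoot apices, with an interaction of 2.01 ± 0.16 (SE, adjusted p = 6.77e-06). For IAA17 (AT1G04250), an Aux/IAA repressor of auxin responses, the libraries gave 122, 118 and 123 CPM in rh27-2 root tips, against 183, 174 and 211 CPM in WT root tips. In the other organ IAA17 had 24.4, 31.4 and 38.5 CPM in rh27-2 shoot apices, against 10.9, 10.7 and 9.12 CPM in WT shoot apices. The 3 libraries of rh27-2 were lower than the WT ones in root tips and higher in shoot apices. IAA17 had an interaction of -2.26 ± 0.20 (SE, adjusted p = 1.17e-05), from log2 changes of -0.65 ± 0.066 in root tips and 1.56 ± 0.18 in shoot apices. IAA4, another Aux/IAA gene, had 0.62 and -1.17. Of 32 auxin synthesis and transport genes, 11 were positive and 4 negative; 9 were negative without WT shoot replicate 3 or with the block in shoot apices, 7 with the block in both organs and 8 with limma voom. TAA1 and TAR2, which make the auxin precursor indole-3-pyruvate, had 0.25 and -2.42, and 0.50 and -1.58, PID, a kinase that steers auxin carriers, rose in root tips only (1.7 and -0.40), and PILS5, an auxin carrier of the endoplasmic reticulum, had -0.90 and 1.6. Cytokinin genes were positive in 11 of 34 and negative in 5. CRF5 had 1.08 and -1.07, LOG5, which activates cytokinin, had -1.97 and 0.76, and LOG8 had -0.32 and -1.58.

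Of 35 abscisic acid and water stress genes, 6 were positive and 8 negative, with -0.63 and 1.93 for CYP707A1, which breaks the hormone down, -2.04 and 0.58 for NCED3 and -1.07 and 1.43 for DREB2A, a factor of drought and heat responses. Jasmonate genes were positive in 2 of 29 and negative in 9, or 14 without WT shoot replicate 2. The positive count was 5 without WT shoot replicate 3, 4 with limma voom or the block in shoot apices, and 1 without the filter or without any 1 of the other libraries except rh27-2 shoot replicate 1. OPR3 and AOC4, enzymes of jasmonate synthesis, fell in root tips and rose in shoot apices (-0.55 and 1.0, and -0.77 and 0.58), and JAZ1 rose in shoot apices only (-0.11 and 1.24). Of 29 salicylic acid and defence genes, 5 were positive and 6 negative. ICS1 (AT1G74710), the enzyme that makes most pathogen-induced salicylic acid, had 6.03, 6.56 and 5.84 CPM in rh27-2 root tips, against 14.1, 14 and 19.1 CPM in WT root tips. Its level was 41.9, 44.1 and 40.7 CPM in rh27-2 shoot apices, against 17.9, 23.2 and 20.5 CPM in WT shoot apices. Each rh27-2 library was lower than every WT library in root tips and higher in shoot apices. ICS1 changed on the log2 scale by -1.36 ± 0.14 in root tips, beside 0.98 ± 0.13 in shoot apices (SE), and the interaction was -2.39 ± 0.19 (adjusted p = 6.34e-06). EDS5, which exports its precursor from plastids, and WRKY70, a defence factor, had -1.0 and 1.44, and -2.32 and 0.97, while RBOHD, an NADPH oxidase, rose in both organs (1.54 and 0.54). Of 29 ethylene genes, 5 were positive and 4 negative, with 2 negative without WT shoot replicate 1, any 1 of the WT root libraries or rh27-2 root replicate 3, 7 with limma voom, and 8 positive and 2 negative with total counts. Responses were seen for ETR2, a receptor, and ACO4, an ACC oxidase, both higher in root tips only (2.1 and 0.20, and 1.44 and 0.18). Gibberellin and brassinosteroid genes were positive in 5 of 33, or 8 with the replicate block or without WT shoot replicate 2, and negative in 10, with 5.27 and 0.79 for GA2OX2, an oxidase that inactivates gibberellin, -0.80 and 0.84 for GASA1, and 0.094 and 1.4, and 0.069 and -1.45 for ROT3 and BAS1, cytochromes P450 of brassinosteroid metabolism.

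In metabolism, 15 of 27 aliphatic glucosinolate genes were positive and 4 negative (median 2.21). Of the 24 tested in both organs, 18 rose in root tips, where 31.3% of all genes did. The main activator of the pathway, MYB28 (AT5G61420), was at 68.1, 59.3 and 64.4 CPM in rh27-2 root tips, against 8.0, 5.93 and 4.9 CPM in WT root tips. Shoot libraries gave 84.2, 71 and 55.6 CPM in rh27-2 shoot apices, against 33.2, 27.7 and 35.5 CPM in WT shoot apices. The genotypes did not overlap in either organ, with rh27-2 higher in both organs. Tests by organ gave log2 changes of 3.32 ± 0.14 in root tips and 1.07 ± 0.18 in shoot apices, with an interaction of 2.21 ± 0.26 (SE, adjusted p = 6.80e-05). The enzyme genes BCAT4, MAM1 and CYP83A1, chosen after their values were seen, had log2 changes of 8.06, 5.51 and 6.73 in root tips, and -1.0, -0.42 and -0.19 in shoot apices, where none of the 3 passed. By contrast GTR1 and GTR2, which carry glucosinolates across membranes, and MYB34, which activates the indole branch, fell in root tips and rose in shoot apices (-0.65 and 1.87, -0.25 and 1.17, and -0.45 and 0.67). Nitrogen genes were positive in 12 of 42 and negative in 12. NIA1, a nitrate reductase, rose in root tips only (1.79 and -0.050), and the glutamine synthetases GLN1;2 and GLN1;1 had opposite patterns, with 1.52 and -0.56, and with -0.40 and 1.79. Sulfate genes were positive in 4 of 31 and negative in 9; 9 were positive with total counts, 7 with limma voom and 8 with the block in shoot apices. SULTR2;1, a vascular sulfate transporter, had 5.49 and 0.52, and GSH1, the first enzyme of glutathione synthesis, had -0.59 and 0.99. Of 40 iron and metal genes, 9 were positive and 7 negative, or 4 negative with total counts (2.31 and 0.66 for OPT3, a phloem transporter, and -0.49 and 0.79 for the copper chaperone CCH). Of 28 phosphate starvation genes, 4 were positive and 8 negative, or 5 with total counts or without any 1 of 5 libraries (replicate 1 of WT and of rh27-2 shoot apices, WT root replicates 1 and 2, and rh27-2 root replicate 3) (1.66 and 0.21 for the transporter PHT1;4, and 0.32 and -1.4 for SQD1, which makes sulfolipid). Flavonoid genes were positive in 4 of 22 and negative in 2, with 1.43 and -2.82 for chalcone synthase (TT4). The positive count was 2 without WT shoot replicate 1, rh27-2 shoot replicate 3, WT root replicate 1 or 3 or rh27-2 root replicate 2, 8 with DESeq2 and 7 with the block in both organs. The negative count was 1 with total counts and without any 1 of the libraries except WT shoot replicate 2 and rh27-2 shoot replicate 1.

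Among stress and energy lists, hypoxia genes were positive in 6 of 20 and negative in 3 (1 with total counts), with 0.80 and -0.94 for HRA1, which damps the response, and 0.10 and 1.72 for the sucrose synthase SUS4. Of 23 heat shock and unfolded protein genes, 7 passed, each negative (11 negative with the replicate block in shoot apices, 12 with DESeq2 and 13 with limma voom). With total counts 2 were positive, and 1 was with the block or without WT shoot replicate 2 or rh27-2 shoot replicate 2. The negative genes included BIP2, a chaperone of the endoplasmic reticulum (-0.62 and 0.48), bZIP60, a factor of the unfolded protein response (-0.048 and 0.62), and HSFA7A (-1.23 and 0.47). Mitochondrial stress genes were positive in 5 of 21 (9 with total counts) and negative in 2 (4 with DESeq2, the block in shoot apices or without WT shoot replicate 2), with -0.30 and 1.05 for the carrier PUMP5. Low energy and sugar genes were positive in 5 of 48 and negative in 13, or 21 with the replicate block and 20 with limma voom or without rh27-2 shoot replicate 1. Of the 43 tested in both organs, 24 fell in root tips, where 30.9% of all genes did. Changes were -0.73 and 0.49 for BZIP53, -0.25 and 0.58 for TPS7, and 3.51 and 1.1 for EXL1. Of 23 glyoxylate and oil breakdown genes, 5 were positive and 4 negative, with 2 or 3 positive without WT shoot replicate 2, rh27-2 shoot replicate 2 or any 1 of the root libraries except WT root replicate 3, and 3 with RLE size factors, DESeq2 or no filter. With DESeq2 7 were negative, and with total counts 2. Changes were 1.26 and -0.35 for PCK1, which starts gluconeogenesis, and 0.17 and -0.86 for IBR3. Seed maturation genes were positive in 4 of 19 and negative in 1 (8 and 2 with limma voom), but 5 of the 19 could be tested in both organs. Of 27 clock genes, 5 passed, each negative, although the list's median was 0.17. With the replicate block 6 were positive and 5 negative. With total counts 2 were positive and 2 negative, without WT shoot replicate 1 there were 2 positive, and without rh27-2 root replicate 3 there were 3 negative. Changes were -0.98 and 0.96 for BOA and -0.41 and 1.28 for LUX, an evening complex member. Flowering and phase genes were positive in 4 of 19 and negative in 5, or 3 without WT root replicate 2 or rh27-2 root replicate 1; with total counts 7 were positive and 3 negative (0.18 and -1.59 for FD, the partner of the florigen, and 0.31 and 1.37 for SMZ).

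Of 40 genes of microRNA biogenesis and small RNA action, 12 passed, each positive, against 21.4% positive over all genes, with a median of 0.34; the count was 10 with RLE size factors and 22 with total counts, and 1 was negative without WT shoot replicate 3. For AGO10 (AT5G43810), an Argonaute that sequesters miR165/166 in the shoot meristem, the libraries gave 51.1, 52.9 and 57.7 CPM in rh27-2 root tips, against 40.1, 42.9 and 45.5 CPM in WT root tips. The shoot values of AGO10 were 55.1, 47.5 and 51.9 CPM in rh27-2 shoot apices, against 117, 89.5 and 133 CPM in WT shoot apices. All 3 rh27-2 libraries were higher than the WT ones in root tips and lower in shoot apices. AGO10 had an interaction of 1.47 ± 0.18 (SE, adjusted p = 0.000103), from log2 changes of 0.33 ± 0.069 in root tips and -1.2 ± 0.17 in shoot apices. ABH1, a cap-binding protein of microRNA processing, had 0.26 and -0.33, KTF1, a factor of RNA-directed DNA methylation, had 0.42 and -0.51, and SDN2, an exonuclease that degrades microRNAs, had 0.56 and -0.10. In the list of poly(A)-binding proteins and RNA helicases, 7 of 15 were positive (4 without WT shoot replicate 1, WT root replicate 1 or WT root replicate 2) and 2 negative, RH27 among the 2. With RLE size factors 4 were positive and 3 negative, and with total counts 9 were positive and 0 negative. The negative count was 1 without WT root replicate 2 or rh27-2 root replicate 2 or 3. RH22 (AT1G59990), a plastid DEAD-box helicase of rRNA maturation, had 25.1, 30.3 and 30.6 CPM in rh27-2 root tips, against 15.4, 16.8 and 15.7 CPM in WT root tips. RH22 shoot values were 32.2, 41.9 and 33.4 CPM in rh27-2 shoot apices, against 77.6, 70 and 42.6 CPM in WT shoot apices. In each organ the genotypes separated, and rh27-2 was higher than every WT library in root tips and lower in shoot apices. The log2 change was 0.84 ± 0.092 in root tips, beside -0.88 ± 0.22 in shoot apices (SE), and the interaction was 1.67 ± 0.27 (adjusted p = 0.000631). RH39, another plastid helicase, also changed in opposite directions (0.51 and -0.83), and RH3, a plastid helicase of intron splicing, fell in shoot apices only (-0.035 and -1.49).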

How the data were processed

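The authors deposited whole-number read counts, 1 file for each of the 12 mRNA libraries; TopHat2, HTSeq, edgeR and Bowtie2 and the TAIR10 build are named without roles in the submitters' processing notes. RNA was extracted with the miRNeasy Mini Kit, per the labels' protocols; the strand of counting is not given in the sources used here, so overlapping and antisense loci cannot be told apart. Gene names came from a RefSeq table of TAIR10.1 (33056 of 33341 loci matched) and, for RH27, from the labels. No sequences are printed and promoter motifs were not analysed here.

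The interaction was tested in 1 fit of the 12 libraries with edgeR 4.0.16 in R 4.3.3 (TMM, filterByExpr with a minimum count of 10, robust quasi-likelihood F test), and each organ in a fit of its 6 libraries, with Benjamini-Hochberg adjustment at 0.05. Standard errors were taken from the F statistic and intervals from its degrees of freedom. The fits were also run on simulated data, in which few genes changed and replicates were independent. That run cannot show how the scaling or the p-values hold where many genes change and shoot replicates deviate together. The genes named were RH27; the 10 of each class of opposite or 1-organ response with the largest change; the 5 of unequal size with the largest interaction; and up to 4 calls of each list by adjusted p. Except for RH27, all needed an average of log2 CPM not under 1 in each organ. Genes taken from the classes also needed a symbol and genotypes that do not overlap in each organ that changed. Genes taken from the lists did not, so their genotypes can overlap. Some genes are left out, and tissue markers are named besides. The 48 lists had 1505 entries, of which 1132 matched a symbol, 225 a synonym, 40 were set by locus, 20 were left out as wrong or repeated and 88 had no match. Members and lists were chosen with earlier results of these data known.

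Deviations of rh27-2 and WT libraries of the same replicate number correlated at 0.416, 0.367 and 0.147 in shoot apices (rh27-2 replicate 3 correlated more, at 0.261, with WT replicate 2) and at 0.0415, 0.0227 and -0.0186 in root tips. The labels state no pairing, and the reported fits hold no replicate block, so their p-values do not account for pairing. Only the alternatives with a block treat the numbers as pairs. With the block in both organs 9608 genes had an interaction call, and 10721 with it in shoot apices only, against 9159 as reported. Alternatives used DESeq2 1.42.0 and limma 3.58.1 (voom with sample quality weights), other scalings, no filter, a replicate block and each library left out.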

Additional observations from a re-analysis of the deposited data

Results flagged for a closer look

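The rh27-2 change differed between root tips and shoot apices, by the interaction test of edgeR, for each of the 195 genes named above by the stated rule (108 with a positive and 87 with a negative value). The sizes below are log2 changes in root tips minus log2 changes in shoot apices. Among genes higher in root tips and lower in shoot apices the difference was 13.36 for CDEF1, 6.92 for GPAT6, 5.7 for GH3.3, 6.68 for NDA1 and 3.169 for GAPA. The difference was also 4.95 for AMI1, 3.56 for CRF1, 3.1 for KAT5, 2.87 for CYP81D5 and 4.08 for CYP96A12. For genes lower in root tips and higher in shoot apices the difference was -5.42 for NCED9, -4.22 for SWEET12, -7.36 for TAT3, -4.05 for ACS2 and -5.53 for FAMT. Further values were -3.9 for IGMT1, -4.67 for CYP84A4, -4.98 for ANNAT4, -3.98 for MSRB7 and -4.76 for MDHAR. Genes that rose in root tips only differed by 2.88 for ANT, 2.66 for ERF2, 2.97 for ABI5, 3.57 for HAK5 and 2.76 for PLA2A. Other members gave 6.99 for LTP5, 4.21 for FAF4, 3.2 for CAD9, 2.53 for ERF12 and 3.23 for GOX2. Those that fell in root tips only differed by -2.17 for PIP1;3, -2.0 for JAZ9, -2.39 for SWEET16, -2.48 for DIN10 and -2.34 for GSTU26. The difference was also -1.85 for SDS, -2.49 for ELP, -2.01 for AGT2, -2.28 for ZW9 and -1.74 for MEE16. In genes that rose in shoot apices only the difference was -3.36 for LAC11, -3.3 for XTH17, -3.54 for UMAMIT14, -3.68 for PAP8 and -2.13 for NAMT1. Further values were -2.28 for ABCG25, -2.04 for SUS5, -2.82 for GSTU6, -2.15 for SSL1 and -2.18 for MAPKKK19. Genes that fell in shoot apices only differed by 4.07 for TCP4, 3.25 for CER1, 3.06 for DCR, 2.88 for UMAMIT33 and 2.82 for NAKR2. Other members gave 2.54 for MIR414, 2.115 for A/N-InvB, 1.84 for GH3.5 and 2.14 for HY2. For genes that changed the same way in both organs the difference was 3.93 for SULTR3;2, 6.41 for EARLI1, 4.0 for ATPMEPCRB and 3.69 for sks9. In ribosome genes the difference was 0.80 for PUM23, 0.75 for PUM24, 0.58 for NAP57, 0.67 for NUG2, 0.98 for RPL16A and 0.54 for RPS18C. Cell cycle genes differed by 1.39 for CYCA2;4, 1.19 for CDC20.2, 0.87 for CYCA2;3, 0.82 for CYCB2;3, 2.38 for RNR2A and 1.14 for RNR1. Further values were 0.60 for ETG1, 0.68 for POLA2, -1.83 for KRP2, 0.70 for PARP1, 1.13 for RAD17 and 1.03 for XRI1. Plastid genes differed by 1.51 for SIG1, 1.43 for PTAC2, 1.83 for PTAC3, 1.07 for SIG6, 2.67 for PSAL, 1.24 for PSBQ-2, 1.54 for LHCA2 and 2.48 for LHCB1.3. Other members gave 6.05 for FBA2, 2.31 for RBCS1A, 3.54 for PORB, 1.01 for FLU, -1.28 for HEMA2, 1.54 for PIF1 and 0.88 for PHYE. Leaf and epidermis genes differed by 2.2 for GRF1, 1.85 for GRF3, 1.37 for SCRM, 2.35 for CER5, 5.09 for PDF1, 1.89 for HDG11 and -1.22 for EGL3. Root cell type genes differed by -2.1 for LRL1, -1.33 for RHD4, -1.27 for CSLD3, -1.48 for LRL2, -1.22 for KCS20 and -1.51 for KCS1. Other members gave -3.5 for PIP2;4, -1.81 for PIP1;4, -1.65 for PIP2;7, -2.35 for WRKY14 and -1.55 for BFN1. Meristem genes differed by 3.19 for PLT5, 1.1 for PLT3, 1.5 for TMO5, 1.91 for LSH3 and 1.83 for CRN. Vascular and wall genes differed by -3.46 for XCP1, -2.39 for XCP2, -2.46 for LAC4, -1.95 for VND4, -3.87 for PRX72, -2.65 for PRR1 and -3.41 for PRR2. Other members gave -2.02 for DIR6, -2.65 for SEOR1, -1.42 for FTIP1, 1.32 for SMXL5, -1.05 for KOR and -2.74 for XTH31. Auxin and cytokinin genes differed by 2.01 for ARF5, -2.26 for IAA17, 1.74 for IAA4, 2.6 for TAA1 and 2.03 for TAR2. The difference was also 2.04 for PID, -2.55 for PILS5, 2.1 for CRF5, -2.77 for LOG5 and 1.21 for LOG8. Genes of other hormones and defence differed by -2.62 for CYP707A1, -2.68 for NCED3, -2.55 for DREB2A, -1.61 for OPR3, -1.41 for AOC4, -1.41 for JAZ1, -2.39 for ICS1 and -2.49 for EDS5. Further values were -3.34 for WRKY70, 0.95 for RBOHD, 1.84 for ETR2, 1.21 for ACO4, 4.41 for GA2OX2, -1.69 for GASA1, -1.36 for ROT3 and 1.47 for BAS1. Metabolic genes differed by 2.21 for MYB28, -2.57 for GTR1, -1.49 for GTR2, -1.18 for MYB34, 1.79 for NIA1, 2.03 for GLN1;2 and -2.25 for GLN1;1. Other members gave 4.93 for SULTR2;1, -1.63 for GSH1, 1.59 for OPT3, -1.33 for CCH, 1.39 for PHT1;4, 1.66 for SQD1 and 4.21 for TT4. Stress and energy genes differed by 1.68 for HRA1, -1.68 for SUS4, -1.15 for BIP2, -0.73 for bZIP60, -1.76 for HSFA7A, -1.41 for PUMP5, -1.27 for BZIP53 and -0.88 for TPS7. The difference was also 2.36 for EXL1, 1.55 for PCK1, 0.97 for IBR3, -2.0 for BOA, -1.75 for LUX, 1.7 for FD and -1.12 for SMZ. RNA genes differed by -0.53 for RH27, 1.47 for AGO10, 0.54 for ABH1, 0.87 for KTF1, 0.60 for SDN2, 1.67 for RH22, 1.29 for RH39 and 1.41 for RH3.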

How the results depend on the processing

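Leaving out each library in turn gave 3638 to 4804 positive and 3962 to 4943 negative interaction calls, and 1912 to 2377 and 2236 to 2562 with a size of at least 1. In the same order as in the report, opposite changes ranged over 292 to 687 and 668 to 1127 (60 to 102 and 90 to 144 at 2-fold), 1-organ responses over 240 to 286 and 129 to 168 in root tips and 280 to 361 and 322 to 569 in shoot apices, and unequal changes over 150 to 260, 300 to 478, 22 to 61 and 153 to 303. With total count scaling there were 6883 positive calls, 1161 genes higher in root tips and lower in shoot apices against 789 with the reverse, and 31 that fell more in root tips. This last count was 83 with DESeq2, 98 with limma voom, and, with the replicate number as a block, 80 in both organs and 97 in shoot apices only, a setting chosen after seeing the data; the block moved no other count of the classes by over 1.5 times. Without the filter, 128 genes were higher in root tips and lower in shoot apices by 2-fold in each. Taking organ calls from the 12-library fit gave 636 that rose in shoot apices only, 425 and 257 that rose more in root tips and in shoot apices, 75 and 154 that fell more in root tips and in shoot apices, and 131 and 226 opposite changes of 2-fold in each. With an interval of -0.5 to 0.5, the 1-organ counts were 49 and 30 in root tips and 211 and 217 in shoot apices (higher, lower), and with 4-fold in place of 2-fold they were 73 and 12 in root tips and 54 and 33 in shoot apices. The cause was not tested. Of 225 genes the naming rule gave, 212 kept their interaction call in each alternative, and the 13 others kept their sign. The class of some named genes moved with total counts. SSL1, SUS5, DIR6, ROT3 and SMZ, called in shoot apices only, were then called higher in both organs. EGL3 and PUMP5 lost their 1-organ class, and CDC20.2 was called in opposite directions. GTR2, PRX72, HEMA2, KOR and GASA1 lost their place among opposite changes. Shoot apices limit the precision: the median SE was 0.1 in root tips, against 0.181 in shoot apices.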

Other observations

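Genes were also grouped by the letters of their symbols, and groups with 10 or more tested genes were looked through, so those named here were chosen after their values were seen. Over all tested genes 21.4% were positive and 22.6% negative, and the groups below were not tested as groups. Of 19 RABA genes, small GTPases of traffic to the plasma membrane and cell plate, 14 passed, each negative (13 with total counts). Negative calls, lower in root tips relative to shoot apices, were made for 14 of 21 SYP genes, syntaxins that drive membrane fusion, and 16 of 27 VPS genes, which sort proteins to the vacuole, with 1 positive in each; with total counts 8 of each group were negative. Of 10 VAMP genes, which pair with syntaxins, 5 were negative and 0 positive, with a median of -0.14. Of 16 genes with an EXO symbol, mostly EXO70 subunits of the exocyst, 11 were negative and 2 positive. Arabinogalactan proteins (AGP) were negative in 15 of 23, with a median change of -0.20 in root tips and 1.1 in shoot apices. The calcium-dependent protein kinases (CPK) were negative in 16 of 23, or 10 with total counts, and positive in 2.

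Positive calls were made for 9 of 11 cytokinin response factors (CRF), 7 of 10 NF-YA transcription factors and 9 of 14 subunits of RNA polymerase II (NRPB) (7 with RLE size factors). Genes with a TIC or TOC symbol were positive in 8 of 12 and 7 of 11, with 1 negative in each. Most are plastid import proteins, but grouping by letters also takes in clock genes such as TOC1, whose interaction was negative. Loci of the plastid genome had a call in 4.26% of 47, against 44.6% of 20370 nuclear protein-coding loci. Plastid and mitochondrial loci together held only 0.0259% to 0.0642% of the counts of a library. With so few reads, the low share of calls does not show that plastid transcripts responded alike in the 2 organs.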
